A study of Mus musculus with 8 samples.

Results

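Adam8, Adam10, Adam17, Adam19 and Furin were read in activated mouse CD4 T cells after 24 h of culture, either untreated or given TGF-b. They are 4 membrane-anchored metalloproteinases of the ADAM family and 1 proprotein convertase. The 5 genes, of 18193 symbols on the array, were selected on their levels and TGF-b ratios in these same samples, which were already in view, so those values are described here and not tested. All 11 probe sets annotated to them alone are given, 4 for Adam10, 3 for Adam17, 2 for Adam19 and 1 each for Adam8 and Furin.

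Naive CD4 T cells were sorted from spleens of C57BL/6J mice (CD25-, low CD44, high CD62L) of 4 genotypes. WT is wild type, Smad2KO is Smad2del/del with the deletion made in T cells, Smad3KO is Smad3-/-, and Smad2KO_Smad3het is Smad2del/del with Smad3+/-, which still holds a Smad3 allele. The last stood in for cells without either gene. The sources used here do not give the driver of the T cell deletion, the age of the mice or whether animals were pooled. All cultures held plate-bound antibody to CD3e and soluble antibody to CD28 at 1 ug/ml each, 10 ug/ml of each blocking antibody (anti-IFN-g, anti-IL-4) and 10 ng/ml of IL-2, and the treated ones also 2 ng/ml of TGF-b. Each genotype has 1 array without and 1 with TGF-b, 8 in all, so a ratio within a genotype has no replicate check, and the number of arrays limits its precision.

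ADAM proteases are known to cut the outer part of membrane proteins from the cell surface, a step called shedding. Most are made as inactive precursors, and furin, a protease that cuts after clusters of basic residues in the secretory pathway, removes the inhibitory prodomain of several of them and also processes the TGF-b1 precursor. In T cells, Adam10 and Adam17 are known as sheddases of Notch receptors, TNF, L-selectin and other surface proteins, and Furin is known to be needed for the function of regulatory T cells.

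Adam19 and Furin were the 2 members with a higher signal with TGF-b in all 4 genotypes, so the DNA just before their annotated starts is shown. The windows run from 250 bases before to 50 bases after a start, from RefSeq on GRCm38.p6, read 5′ to 3′ along the gene. RefSeq lists 3 such windows for Adam19 and 2 for Furin, and all 5 members matched the table. The array does not tell which start was used. Capitals mark CAGAC, the core of the DNA element that Smad proteins are known to bind, or its reverse complement GTCTG, and TGAGTCA, the site known for AP-1 factors, or its reverse complement. No match of one overlapped the other.
Adam19, chr11:46054252-46054551, plus strand: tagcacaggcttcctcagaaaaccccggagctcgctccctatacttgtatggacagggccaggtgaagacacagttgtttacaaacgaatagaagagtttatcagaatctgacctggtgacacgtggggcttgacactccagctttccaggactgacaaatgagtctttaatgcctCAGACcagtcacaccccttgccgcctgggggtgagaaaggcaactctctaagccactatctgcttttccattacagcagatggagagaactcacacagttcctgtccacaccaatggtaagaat
Adam19, chr11:46055734-46056033, plus strand: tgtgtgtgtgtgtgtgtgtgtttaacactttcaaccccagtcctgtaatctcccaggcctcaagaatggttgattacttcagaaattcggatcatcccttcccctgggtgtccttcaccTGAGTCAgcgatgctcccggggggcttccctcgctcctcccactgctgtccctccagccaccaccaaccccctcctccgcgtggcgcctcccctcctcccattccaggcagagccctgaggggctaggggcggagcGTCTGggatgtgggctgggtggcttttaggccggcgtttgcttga
Furin, chr7:80405387-80405686, minus strand: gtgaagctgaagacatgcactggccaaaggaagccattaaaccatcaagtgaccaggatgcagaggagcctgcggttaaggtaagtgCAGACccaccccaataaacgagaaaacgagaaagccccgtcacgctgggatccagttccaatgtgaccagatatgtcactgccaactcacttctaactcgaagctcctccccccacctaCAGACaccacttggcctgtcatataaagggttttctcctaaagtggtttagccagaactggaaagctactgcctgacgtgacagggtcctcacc
Furin, chr7:80402763-80403062, minus strand: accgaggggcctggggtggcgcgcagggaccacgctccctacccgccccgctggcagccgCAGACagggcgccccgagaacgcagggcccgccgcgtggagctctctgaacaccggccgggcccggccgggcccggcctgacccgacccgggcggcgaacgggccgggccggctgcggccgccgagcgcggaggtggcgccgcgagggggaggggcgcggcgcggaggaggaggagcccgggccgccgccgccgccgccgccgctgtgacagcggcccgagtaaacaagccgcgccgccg
Both Adam19 windows printed and the remaining one at chr11:46127654-46127953 held 1 match to CAGAC each, and the window at chr11:46055734-46056033 also held 1 match to TGAGTCA. The Furin windows held 2 and 1 matches to CAGAC. The Adam8 window held 2, and the Adam10 and Adam17 windows held 0 of either motif. Of the 32851 promoters in the table, 49.6% held CAGAC and 5.20% held TGAGTCA on either strand, so a match to CAGAC is common. A match is a description of the letters only.

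Signals are scaled so that every array has the same 2% trimmed mean. A floor of 27.7, the median of all scaled signals of the WT, Smad2KO and Smad3KO arrays, was set for those 6, and a floor of 41.9, the median over all 8, for the Smad2KO_Smad3het pair. Lower signals were raised to the floor before log2 ratios were taken, and "at least" marks a ratio with a signal under it. A gene was called bright in a pair if its higher signal reached 2 times the floor, 55.4 or 83.7. The 83.7 lies under the scaled medians of the Smad2KO_Smad3het arrays, 88.0 and 90.9. For that pair bright, and a signal over the floor, are thus looser terms than for the 6 arrays. The Smad2KO_Smad3het arrays stood apart, with scaled medians of 88.0 and 90.9 against 26.2 to 30.4 and rank correlations of 0.660 to 0.693 with the others, against 0.907 to 0.928 among the 6. Of 9 CD4 T cell markers on the array all were bright, with summed signals of 24333 to 27850 on the 6 arrays. On the Smad2KO_Smad3het arrays they summed to 20700 to 21402. Markers of other cells were lower on the 6 arrays. B cell markers summed to 68.8 to 105 and myeloid markers to 129 to 233, against 655 to 971 and 2811 to 3617 on the Smad2KO_Smad3het arrays. CD8 T cell markers summed to 58.1 to 137 and 1049 to 1347, NK cell markers to 5.49 to 35.6 and 143 to 594, erythroid markers to 12.3 to 66.5 and 165 to 320.0, and memory or effector T cell markers to 193 to 515 and 365 to 581, in the same order. Not all markers of a list moved together: of the B cell markers Pax5 read 361 and 681 on the Smad2KO_Smad3het arrays but Ms4a1 and Cd22 11.4 to 21.2. Ifng read 231 in untreated Smad3KO cells, against 55.6 in untreated WT and 38.7 in untreated Smad2KO cells. Gzmb read 176 in untreated Smad3KO cells but 179 in untreated Smad2KO cells. The part of these markers in the results was not tested. Member values are given for that pair on its own, and tests of other genes use the 6 arrays unless stated. In RNA of a whole culture, fewer cells expressing a gene and less RNA per cell cannot be told apart.

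Adam19, also called meltrin beta and known as a sheddase of neuregulin, went from a signal of at most 58.1 to one of at least 430.1 with TGF-b in WT, Smad2KO and Smad3KO. Its brighter probe set, 1418402_at, read 19.8 without and 1210.4 with TGF-b in WT. The signals were 58.1 and 832 in Smad2KO. They were 35.1 and 430.1 in Smad3KO. The untreated Smad2KO signal alone of the untreated ones of these 3 genotypes was over the bright minimum of 55.4. Every array with TGF-b was higher than every array without. The share of all genes that separate this way is not given, and Adam19 was chosen with these values in view, so nothing is read from it. In Smad2KO_Smad3het the same probe set read 87.4 and 429, and the signal without TGF-b lay just under the median of that array. With TGF-b the order of levels was thus WT, Smad2KO, then Smad3KO and Smad2KO_Smad3het, at 0.688, 0.355 and 0.354 of the WT signal. Without TGF-b the WT signal of this probe set was the lowest of the 4, but it lay under the floor. On the other Adam19 probe set, 1418403_at, Smad2KO read lower than WT without TGF-b, 2.69 against 3.52, both under the floor. No order of genotypes without TGF-b is thus read. There is 1 array per group, so whether neighbours in the order with TGF-b differ beyond the spread of replicates cannot be told.

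The ratio with over without TGF-b for Adam19 was at least 43.7-fold for WT, 14.3-fold for Smad2KO, 12.2-fold for Smad3KO and 4.91-fold in Smad2KO_Smad3het. On the log2 scale these are 5.45 or more, 3.84, 3.61 and 2.30. The WT value is a bound set by the floor, and at a floor on the 25th percentile it was 5.94. Averaged over both probe sets it was 4.34 for WT and 2.88 for Smad3KO, and quantile normalization gave 3.33 for Smad2KO_Smad3het. The second probe set, 1418403_at, read 3.52 and 260.0 in WT. It went from 2.69 to 221 in Smad2KO, from 7.50 to 123 in Smad3KO, and from 37.7 to 186 in Smad2KO_Smad3het. All its signals without TGF-b lay under the floor, so its ratios are bounds: at least 9.39-fold, 7.99-fold, 4.45-fold and 4.45-fold in the same order of genotypes. With TGF-b both probe sets read highest in WT, next in Smad2KO and lowest in Smad3KO among the first 3 genotypes, but in Smad2KO_Smad3het the second read 0.717 of the WT level with TGF-b where the first read 0.354.

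Furin was bright on all 8 arrays and, with the scaling used here, 2- to 3-fold higher with TGF-b in each genotype. Its probe set, 1418518_at, read 297 and 851 in WT. It read 281 and 609.8 in Smad2KO. It read 261 and 603 in Smad3KO, and 253 and 733 in Smad2KO_Smad3het. The 4 signals without TGF-b lay between 253 and 297 and the 4 with it between 603 and 851. As for Adam19, the share of all genes that separate this way is not given. The ratios were 2.86-fold for WT, 2.17-fold for Smad2KO, 2.31-fold for Smad3KO and 2.90-fold in Smad2KO_Smad3het. The last depended on the scaling: its log2 ratio was 1.54 here and 1.99 with quantile normalization. Without TGF-b the mutants stood at 0.946, 0.879 and 0.850 of the WT signal, and with it at 0.717, 0.709 and 0.861. Whether the ratio differs between genotypes was not tested.

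**Figure D1:**
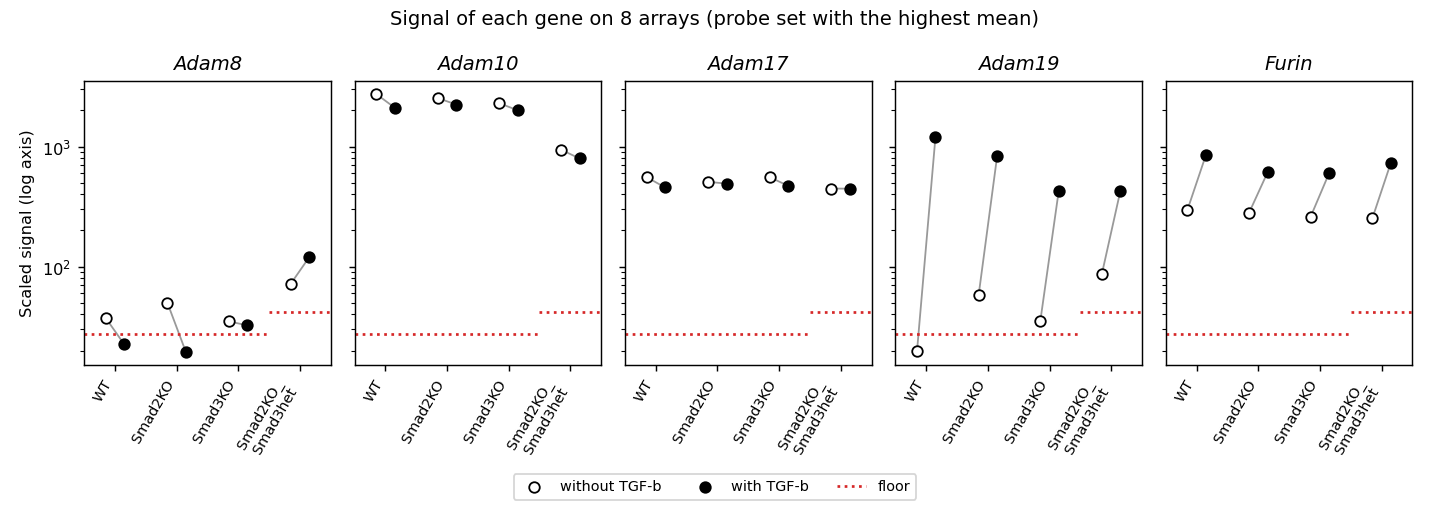
Scaled signal (log axis) of the probe set with the highest mean for each of the 5 genes on 8 arrays, 1 array per point; open circles are without TGF-b, filled circles with it, lines join the pair of a genotype, and dotted lines mark the floor. Adam19 and Furin have a higher filled circle in all 4 genotypes, while Adam10 has a slightly lower one in each and Adam8 lies near the floor in WT, Smad2KO and Smad3KO.

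Adam10, a widely expressed sheddase known to start the cleavage of Notch receptors, had bright signals throughout and slightly lower ones with TGF-b in the first 3 genotypes. Its brightest probe set, 1428103_at, read 2744 without and 2111 with TGF-b in WT. The pairs were 2533 and 2239.8 for Smad2KO, and 2294 and 2002 for Smad3KO. In Smad2KO_Smad3het it read 941 and 796, under every signal of the other 6 arrays. The log2 ratios were -0.38 in WT, -0.18 for Smad2KO, -0.20 for Smad3KO and -0.24 for Smad2KO_Smad3het. For scale, the robust SD of log2 ratios, taken over genes that were bright without as well as with TGF-b, was 0.329, 0.261, 0.197 and 0.433 in the same order, so the WT ratio of this probe set lay slightly over 1 such SD from 0, the Smad3KO ratio at about 1 and the others within it. Over its 3 bright probe sets the log2 ratio ran from -0.80 to -0.30 in WT, from -0.30 to -0.16 in Smad2KO, from -0.35 to -0.20 in Smad3KO and from -0.24 to 0.19 in Smad2KO_Smad3het. The lowest WT value came from 1450104_at, which read 867 and 497. In Smad2KO_Smad3het 1450104_at read 507 and 580, within its range on the other arrays. There 1450105_at read 546 and 473, under all its other signals, so the probe sets differ on the level in that genotype. The remaining Adam10 probe set, 1460083_at, was under the floor on every array except Smad3KO without TGF-b, where it read 32.2.

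Adam17, known as the TNF-converting enzyme, had much the same signal on all 8 arrays on its brightest probe set, 1421858_at. That probe set read 557 in untreated and 456 in treated WT cells. Untreated and treated cells read 509 and 491 for Smad2KO and 555 and 471 for Smad3KO. In Smad2KO_Smad3het they read 447 and 446. Signals with and without TGF-b lay close together in each pair, with log2 ratios of -0.29, -0.05, -0.24 and 0.00. Over its 3 probe sets the log2 ratio ran from -0.35 to -0.10 in WT, from -0.20 to 0.22 in Smad2KO and from -0.24 to -0.08 in Smad3KO. In Smad2KO_Smad3het it ran from 0.00 to 0.61, the last from 1421859_at at 306 and 468. The probe sets thus did not share a direction outside WT and Smad3KO. Nor did they share a level: 1421857_at read 273 and 304 in Smad2KO_Smad3het, against 161 to 201 on the other arrays.

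Adam8, a protease known from myeloid cells and other leukocytes, was not bright in WT, Smad2KO or Smad3KO. Its probe set, 1416871_at, went from 37.4 to 22.6 with TGF-b in WT cells, from 50.2 to 19.6 in Smad2KO cells and from 35.0 to 32.4 in Smad3KO cells. These lie around the floor, and the WT and Smad2KO signals with TGF-b lie under it. In Smad2KO_Smad3het it read 71.7 and 119, where the first lay under the median of its array, and summed myeloid marker signals were also higher on those arrays, as given above. Within that pair the myeloid sum was lower with TGF-b, 2811 against 3617, while Adam8 was higher, and Itgam (2.80 and 13.4) and Cd68 (46.6 and 50.7) were near their levels on the other arrays. The part of that in the Adam8 signal was not tested.

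Counted over the 4 bright members of WT, Smad2KO and Smad3KO, 2 were at 2-fold or more higher with TGF-b in each, Adam19 and Furin, and 0 at 2-fold or more lower. The background of bright genes at 2-fold higher was 4.56% for WT, 2.95% for Smad2KO and 1.9% for Smad3KO. At 2-fold lower it was 2.91%, 1.75% and 0.839%. In Smad2KO_Smad3het, where bright is the looser term, the same 2 of 5 bright members were higher and 0 lower, against 11.4% and 9.62%. The list was made with these ratios known, so nothing is read from the counts.

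**Figure D2:**
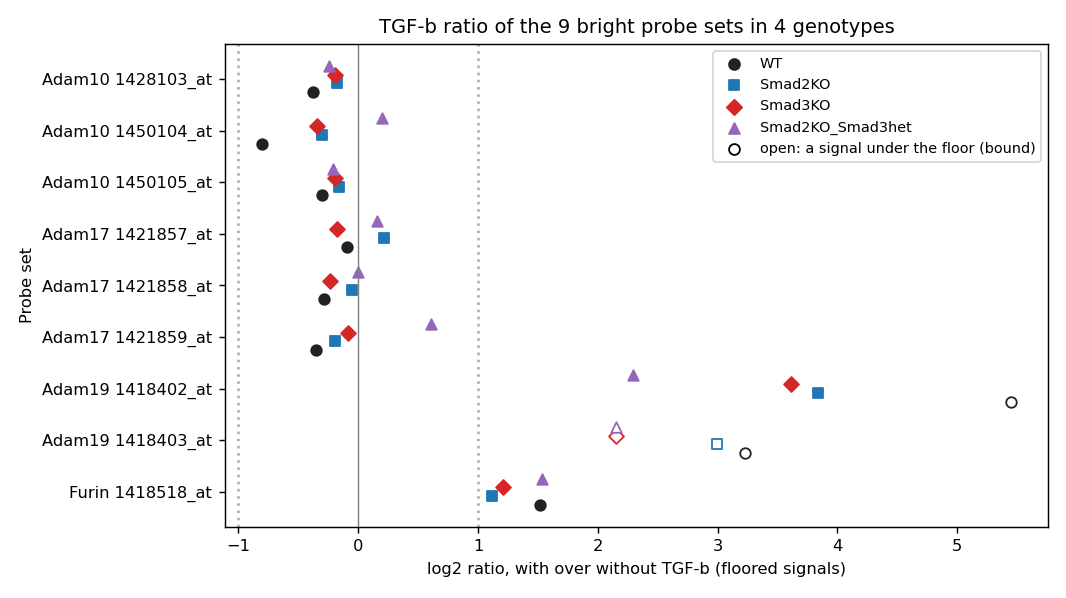
log2 ratio of the signal with over without TGF-b for the 9 probe sets that were bright on any of the 6 WT, Smad2KO and Smad3KO arrays, 1 pair of arrays per symbol; open symbols have a signal under the floor and are bounds, and dotted lines mark 2-fold. The Adam19 and Furin symbols all lie above 1, and those of Adam10 and Adam17 lie between -0.80 and 0.61.

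The other genes of the pathway were read from lists of 90 genes, which were drawn up with earlier results of these data known. Of these, 82 were annotated on the array and 43 were tested on the 6 arrays. The test was limma on log2 floored signals of WT, Smad2KO and Smad3KO, with genotype as a block and Benjamini-Hochberg adjustment over all 9464 genes tested. It sets the mean TGF-b response against its spread between genotypes, so it measures these cultures only. Of all genes tested, 7.15% rose and 5.64% fell by this rule. Of the 43 listed genes 13 rose and 4 fell, 39.5% against 12.8% of all genes in either direction, which is a description since the lists were not drawn blind. With the Smad2KO_Smad3het pair added, limma called 0 of 70 listed genes (18 at an unadjusted p under 0.05). Of all genes it called 0.139%, 0.109% higher and 0.0292% lower. Here and below, the share of all genes at an unadjusted p under 0.05 is not given, so nothing is read from those counts.

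Relatives of the 5 genes gave no calls. Of 9 other ADAM genes 3 were bright enough to test, and limma called 0 of them (1 at an unadjusted p under 0.05). Adam9 was at 0.28 on the log2 scale (limma adjusted p = 0.182), and Adam15 at -0.40 (adjusted p = 0.125), which without the Smad3KO pair was -0.58 and passed. In Smad2KO_Smad3het Adam15 went from 1621 to 2317, against 92.8 to 186 on the 6 arrays. Of the other proprotein convertases 3 were tested and 0 called (0 at an unadjusted p under 0.05). Pcsk7 read 145 to 165 and Mbtps1, the site-1 protease of sterol sensing, 651 to 717 on the 6 arrays, with mean responses of -0.04 and 0.05. In Smad2KO_Smad3het Pcsk7 read 1206 and 1170.4. Of the gamma-secretase subunits, which cut what a sheddase leaves in the membrane, 4 were tested and 0 called by limma (1 at an unadjusted p under 0.05), with Psenen at 0.20 (adjusted p = 0.0945). Ncstn was at -0.33 (adjusted p = 0.241) and passed at -0.51 without the Smad3KO pair.

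Of 7 tested partners and inhibitors of the sheddases, 2 rose and 0 fell, with a median response of 0.25 against -0.02 over all genes. Frmd8, which is known to bind the iRhom cofactors of Adam17, rose by 0.42 (SE 0.0935, limma adjusted p = 0.0130), reading 446, 456 and 383 without TGF-b and 570, 583 and 556 with it in WT, Smad2KO and Smad3KO. Tspan14, a tetraspanin known to escort Adam10, rose by 0.44 (SE 0.119, adjusted p = 0.0322). Neither call held without the WT pair, with limma adjusted p of 0.0804 and 0.265, nor did that of Tspan14 without the Smad2KO pair (adjusted p = 0.0751). Timp2, an inhibitor of metalloproteinases, went from 356 to 2401 in WT, from 532 to 2137 in Smad2KO and from 506 to 1182 in Smad3KO. Its mean response of 1.99 did not pass, with log2 ratios of 2.75, 2.01 and 1.22 (SE 0.375, limma adjusted p = 0.0869). It passed when the WT pair (1.62) or the Smad3KO pair (2.38) was left out, with the mean of its probe sets (1.46), and, at 1.99, with no filter, no block or plain limma.

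Of 18 tested genes whose proteins are known to be shed, 7 rose and 3 fell, with a median response of 0.12. The rises were led by Hbegf, an EGF-like growth factor released by shedding, at 2.68 (SE 0.292, limma adjusted p = 0.000543), which went from 43.4 to 436 in WT, from 32.4 to 259.7 in Smad2KO and from 38.4 to 126 in Smad3KO. Prnp, the prion protein gene, rose by 1.64 (SE 0.202, adjusted p = 0.00104). Il6ra, the IL-6 receptor chain shed by Adam17 and Adam10, rose by 1.34 (SE 0.159, adjusted p = 0.000211). Selplg, the ligand of P-selectin, rose by 1.17 and Tnfrsf1b, a TNF receptor, by 1.12. Sema4d, at 0.55, and Notch2, at 0.42, completed the rises. The falls were Il15ra, the IL-15 receptor chain, by 1.22 (SE 0.287, adjusted p = 0.0241), Cd40lg, the helper signal to B cells, by 0.86 and Fasl, the death ligand, by 0.56 (SE 0.150, adjusted p = 0.0335). Tnf read 672 to 1089 on the 6 arrays with a mean response of -0.17 (adjusted p = 0.409), which passed at -0.33 without the Smad3KO pair and was 0.02 without the WT pair. Notch1 read 508 to 646 at -0.06. Cd44 was at 0.31 (adjusted p = 0.135), passed at 0.48 without the Smad2KO pair and was at 0.13 without the Smad3KO pair. The Il15ra call was lost without the Smad2KO pair, at -0.75 (limma adjusted p = 0.0776), and without the WT pair (adjusted p = 0.106). The Notch2 response was 0.13 and lost its call when probe sets were averaged. Tnfsf11, also called RANKL, had a log2 ratio of -1.84 for WT, -1.03 for Smad2KO and -0.26 for Smad3KO, and its mean of -1.05 did not pass (adjusted p = 0.254), and without the Smad3KO pair it passed at -1.44.

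Of 8 tested genes whose precursors are known to be cut by furin or related convertases, 4 rose and 1 fell, with a median response of 0.33. Pdgfb, a platelet-derived growth factor chain, rose by 1.98 (SE 0.0948, limma adjusted p = 2.99e-07), going from 449 to 1697 in WT, from 395 to 1390.1 in Smad2KO and from 349 to 1619.6 in Smad3KO. Itga6 rose by 0.68 and Itgav by 0.47, both integrin alpha chains. Tgfb1, the cytokine that furin is known to process, rose by 0.39 (SE 0.0873, adjusted p = 0.0140), from 2002, 2154 and 1646 without TGF-b to 2796, 2358 and 2438 with it. Itga3, another integrin alpha chain, fell by 1.15 (SE 0.188, adjusted p = 0.00203). Igf1r was at 0.27 (adjusted p = 0.109) and Insr at 0.08. Itgae, Mmp14 and Inhba were among the 10 annotated furin substrates that were not bright on any of the 6 arrays.

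In the limma fit on all 8 arrays the mean response of each of the 17 kept its sign. That fit holds the arrays that gave the calls, so a kept sign is no separate check. The share of all called genes that went the other way in the Smad2KO_Smad3het pair is not given. That pair alone went the other way for 4 of the 17, and Tnfrsf1b was level in it at 509.5 and 509.7. In that pair Il6ra went from 86.4 to 40.5, Tspan14 from 339 to 229, Il15ra from 59.1 to 115 and Fasl from 113 to 124 with TGF-b. Both Il6ra signals and the untreated Il15ra signal lay under the medians of those arrays, 88.0 and 90.9. The treated Il6ra signal also lay under the floor of 41.9. The mean on 8 arrays was 0.74 for Il6ra, 0.19 for Tspan14 and -0.67 for Il15ra. With each genotype pair left out in turn, 9 of the 17 passed every time: Hbegf, Prnp, Il6ra, Selplg, Tnfrsf1b, Pdgfb, Itga6, Itgav and Itga3. The share of all called genes that did so is not given. These fits also reuse arrays that gave the calls, so nothing is read from the count. Averaging probe sets ended the calls of Itga3, at -0.55, and of Itgav, at 0.25, and the Itgav call was also lost with plain limma. The other 8, Cd40lg, Fasl, Frmd8, Il15ra, Notch2, Sema4d, Tgfb1 and Tspan14, failed at least once. Levels between genotypes were fitted with treatment as a block. For Smad2KO against WT, limma called 0 of the 43 listed genes (5 at an unadjusted p under 0.05). For Smad3KO against WT it called 0 (10 at an unadjusted p under 0.05). Of all genes, 1.01% (0.518% higher, 0.497% lower) and 0.465% (0.222% higher, 0.243% lower) were called, in the same order. The share of all genes at the unadjusted threshold is not given, so nothing is read from the 5 and 10. With arrays centred on their median log2, 1 listed gene was called for Smad3KO, and the split over all genes went from 21 higher and 23 lower to 360 and 23 for Smad3KO and from 49 and 47 to 176 and 39 for Smad2KO.

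**Figure D3:**
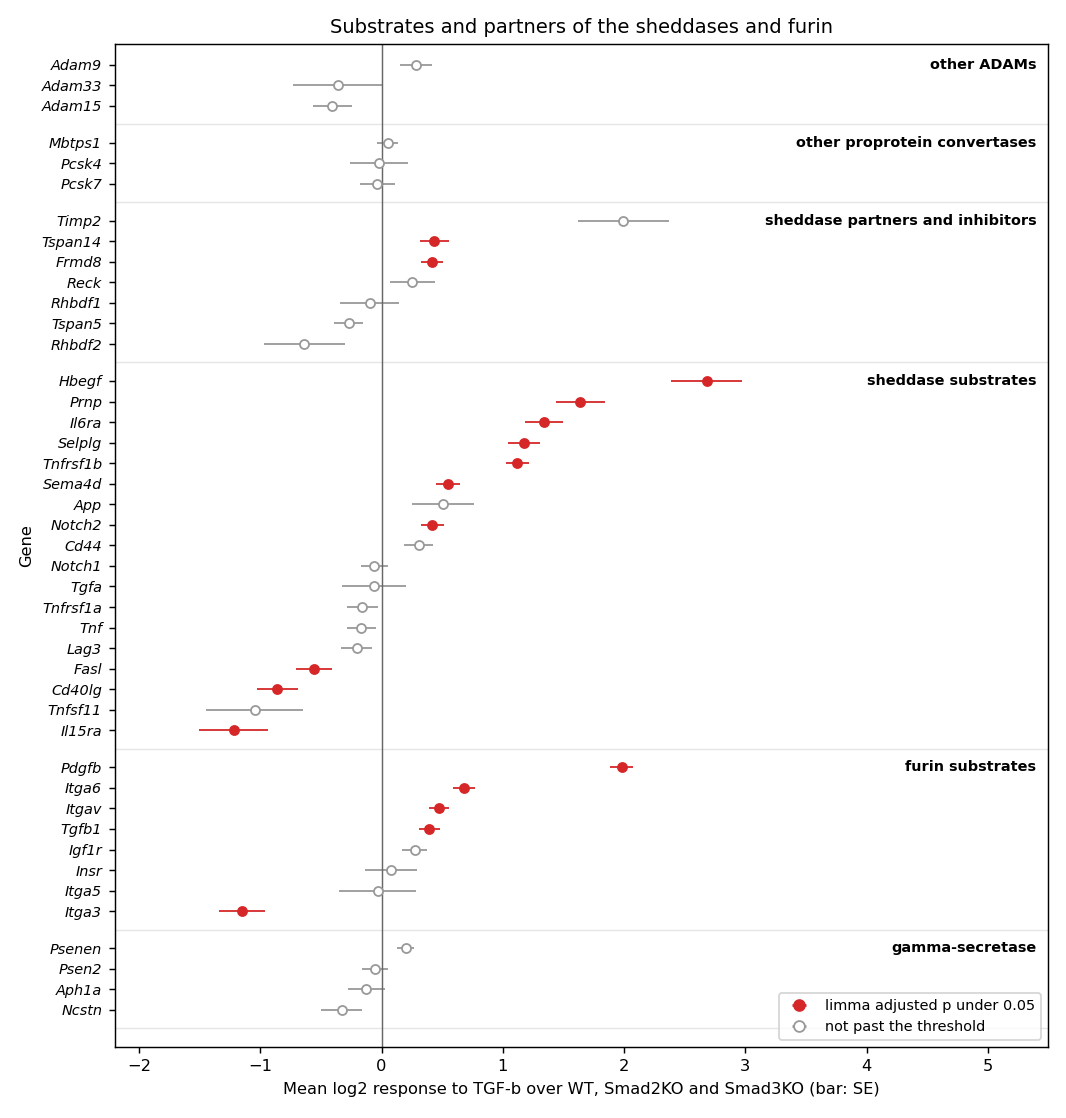
Mean log2 response to TGF-b over WT, Smad2KO and Smad3KO for the 43 tested genes of 6 lists, 1 gene per point with bars for the SE of limma; filled red points passed the adjusted threshold of 0.05 and open grey points did not. The 13 red points to the right of 0 are led by Hbegf at 2.68 and Pdgfb at 1.98, and the 4 to the left are Il15ra, Itga3, Cd40lg and Fasl.

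Genes with a pattern like Adam19 and Furin were ranked by Pearson correlation of log2 floored signal over the 6 arrays, among 1583 genes that ranged over 1 log2 unit or more. The points share arrays, and 6 arrays in 3 pairs leave many genes with near-equal coefficients, so the order is a description. Nearest to Adam19 were Foxo1, a transcription factor of naive and regulatory T cells (r = 0.998), Ikzf4, also called Eos (r = 0.997), Wnt10b (r = 0.997), Igfbp4 (r = 0.996) and Mllt6 (r = 0.996). Foxo1 went from 429.9 to 1096 in WT, from 487 to 963 in Smad2KO and from 454 to 860.2 in Smad3KO. Its ratios were far smaller than those of Adam19. It was chosen for its likeness on these arrays, so sharing the order of genotypes follows largely from the choice. Wnt10b lay under the floor on 2 of the 6 arrays, at 24.7 in WT and 24.5 in Smad3KO, both without TGF-b. The Smad2KO_Smad3het pair was not used for the ranking. In it, without and with TGF-b, Foxo1 read 686 and 793, Ikzf4 119 and 242, and Igfbp4 1827 and 7125. Mllt6 read 812 and 1576 there, but Wnt10b was lower with TGF-b, at 99.6 and 46.0. Nearest to Furin were Klf10, an early TGF-b target (r = 0.997), Smim3 (r = 0.995), Cul7 (r = 0.995), Nkg7 (r = 0.994) and Anxa4 (r = 0.994). Klf10 went from 138 to 589 in WT, from 118 to 396 in Smad2KO and from 101 to 394 in Smad3KO. That it was near-equal in the mutants with TGF-b, as Furin was, likewise follows largely from the choice. In Smad2KO_Smad3het, without and with TGF-b, Klf10 read 42.9 and 104, Smim3 62.5 and 112, and Cul7 485 and 574. Nkg7 was level there at 67.2 and 69.8, and Anxa4 was lower with TGF-b, at 63.2 and 41.2. The signals of Nkg7 and Anxa4 lay under the medians of those arrays, 88.0 and 90.9. The remaining members ranged over less than 1 log2 unit on the 6 arrays, 0.86 for Adam8, 0.45 for Adam10 and 0.29 for Adam17.

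**Figure D4:**
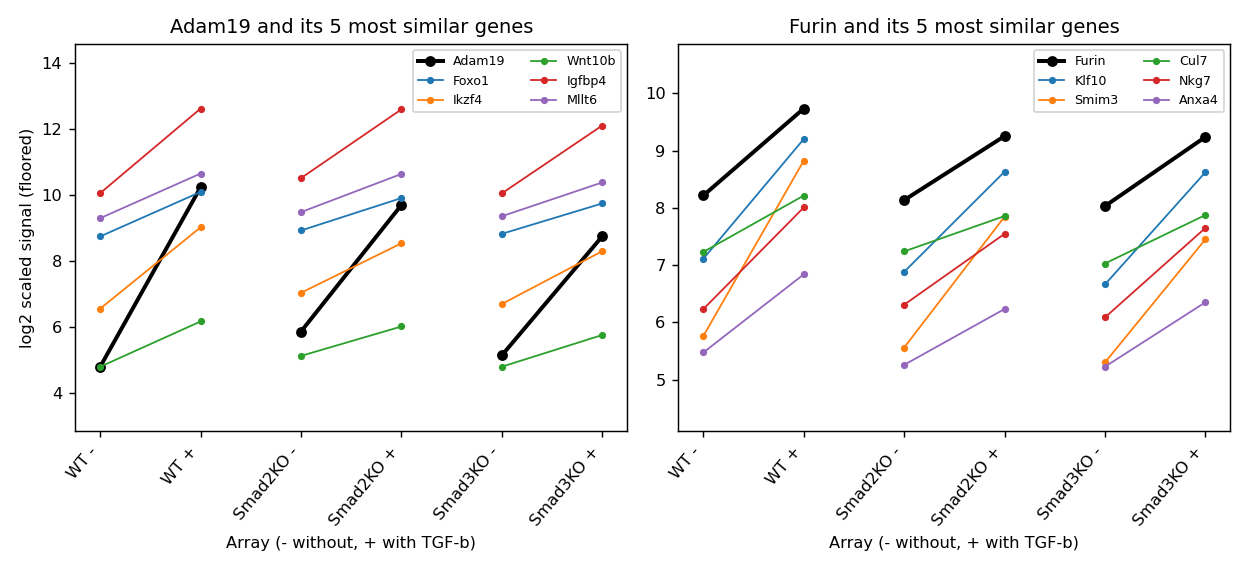
log2 floored signal of Adam19 (left) and Furin (right), in black, with the 5 genes of highest Pearson correlation over the 6 WT, Smad2KO and Smad3KO arrays; each point is 1 array and lines join the arrays of a genotype without (-) and with (+) TGF-b. In the left panel WT with TGF-b is the highest Adam19 point at 1210.4 and Smad3KO with TGF-b the lowest of the treated ones at 430.1, while in the right panel the treated mutants lie side by side at 609.8 and 603.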

How the data were processed

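Probe set intensities on a linear scale were deposited by the authors for 8 Affymetrix arrays, processed with GCOS 1.4, per the submitters' processing notes. The sources used here do not state which GCOS algorithm, background step or scaling was applied. Deposited 2% trimmed means were 97.4 to 109 for Smad2KO_Smad3het and 202 to 298 elsewhere, so the arrays were scaled to their common mean of 216 with factors of 0.726 to 2.22. The array holds 45101 probe sets. Those with 1 gene symbol (34945) were used, and those with several (932) or none here (9160) and the 64 controls were not. A gene was tested if its signal reached 2 times the floor on any array used, and was read from its bright probe set with the highest mean, 9464 genes on 6 arrays and 13701 on all 8. Scaling and floors follow earlier work on these data. Responses and genotype levels were fitted with limma 3.58.1 in R 4.3.3, with trend and robust settings, 2 residual degrees of freedom on 6 arrays and Benjamini-Hochberg adjustment at 0.05. The method was tested on simulated data. No label ties cultures to separate animals, and p-values then reflect only how these cultures varied, which may be technical. Figures were drawn with matplotlib 3.10.9.

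The members and all gene lists were chosen with earlier results of these data known, and leaving the Smad2KO_Smad3het pair out of the fits rests on them too. Named were the 5 members, in each list the genes that passed and up to 4 others of highest mean signal, and the 5 genes most like each member that ranged over 1 log2 unit or more. Alternatives were quantile normalization, arrays centred on their median log2, a floor at the 25th percentile, the mean of probe sets, no filter, limma without trend and robust settings, all 8 arrays, each genotype pair left out and no genotype block. RefSeq sequences and gene order are of GRCm38.p6, and 34741 probe sets matched its gene table by Entrez identifier.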

Additional observations from a re-analysis of the deposited data

Results flagged for a closer look

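Adam8 had log2 ratios of opposite sign in different genotypes. The ratio was -0.43 in WT, -0.86 in Smad2KO and 0.74 in Smad2KO_Smad3het, which lies 1.17 above WT and 1.59 above Smad2KO. The difference was not tested, since each genotype has 1 pair of arrays. Its size depended on the processing. With arrays centred on their median log2 the ratios were -0.30, -0.90 and 0.39 in the same order of genotypes. With the floor at the 25th percentile they were -0.73, -1.36 and 0.74. The main floor was 27.7 for WT and Smad2KO and 41.9 for Smad2KO_Smad3het. The WT and Smad2KO values are bounds, with the signals with TGF-b under the floor, and the Smad2KO_Smad3het signals of 71.7 and 119 lie beside array medians of 88.0 and 90.9.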

How the results depend on the processing

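The count of 2 members higher and 0 lower at 2-fold was the same in each of the 4 genotypes under quantile normalization, centred arrays, a floor at the 25th percentile and the mean of probe sets. Of 80 ratios of members recomputed this way, 73 moved by less than the robust SD of their pair and 7 by more, with no called ratio changing sign. Of the recomputed responses of named listed genes, 343 kept their side of the threshold, 57 lost it, 11 gained it and 0 reversed. For the listed genes, 13 rises became 8 and 4 falls became 2 without limma's trend and robust settings, and 0 and 0 on all 8 arrays. The 4 falls became 2 with the mean of probe sets, 2 with no filter, 2 without the genotype block, 1 without the WT pair, 2 without the Smad2KO pair and 8 without the Smad3KO pair. Over all genes, 677 rises and 534 falls became 343 and 224 when probe sets were averaged, 305 and 154 with no filter, 267 and 125 without trend and robust settings, 15 and 4 on all 8 arrays, 370 and 230 without the genotype block, and 243 and 147 without the WT pair. The falls were 270 without the Smad2KO pair and 895 without the Smad3KO pair. For Smad2KO against WT, 49 higher and 47 lower genes became 8 and 11 when probe sets were averaged, 5 and 8 with no filter, 2 and 2 without trend and robust settings and 1 and 1 on all 8 arrays, and 176 were higher with centred arrays. For Smad3KO against WT, 21 higher and 23 lower became 12 and 15 with the lower floor, 3 and 3 when probe sets were averaged, 1 and 3 with no filter, 1 and 2 without trend and robust settings and 0 and 1 on all 8 arrays. The higher count was 13 with quantile normalization and 360 with centred arrays, where 1 listed gene was called in place of 0. Fits without a pair had 1 residual degree of freedom; the cause of the other shifts was not tested. Signals under the floor limit what can be said of Adam8 and of Adam19 without TGF-b.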

Other observations

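The protein-coding genes next to each member on GRCm38.p6 were read as well, chosen by position alone. Fes, a tyrosine kinase gene beside Furin, went from 13.0 to 90.2 with TGF-b in WT. It went from 30.9 to 49.7 in Smad2KO and from 7.32 to 42.5 in Smad3KO, near the floor of 27.7. In Smad2KO_Smad3het Fes read 471 and 449. Blm, the helicase gene on the other side of Furin, read 438 to 628 on the 6 arrays with log2 ratios of -0.19, -0.27 and -0.01. The neighbours of Adam19, Sox30 and Nipal4, lay under the floor on all 6 arrays. Tubgcp2, beside Adam8, read 637 to 719, and Mindy2, beside Adam10, 380.4 to 466. Beside Adam17, Iah1 had log2 ratios of 0.29, 0.21 and 0.45 and Ywhaq of -0.18, -0.11 and -0.11.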
